A study of Mus musculus with 2 samples.

Results

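The NRF2 and redox defence genes are 43 genes listed by symbol, and all 43 were found in the deposited table of 22383 genes. The rule names genes by known function, with no cut on a measured value, and the list was drawn up with earlier results of these data known. The RNA came from iHFSC2, a mouse cell line made by immortalizing hair follicle stem cells, in 2 stable versions. The shcircSmad5 cells were infected with a lentivirus that makes a short hairpin RNA (pwslv-shcircSmad5) against circSmad5, a circular RNA of the Smad5 gene. The empty vector cells were infected with the vector that has no hairpin insert, so both groups share infection and puromycin selection, which began on day 4 with the lines established at day 15. No line with a non-targeting hairpin was analysed here, and there was 1 library per group. Effects of the hairpin, of losing circSmad5 and of selecting separate lines therefore cannot be told apart, no difference has a replicate check, and there is no test, SE or p-value.

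NRF2, the product of Nfe2l2, is a transcription factor that KEAP1 holds in the cytoplasm and marks for destruction while the cell is unstressed. Oxidants and electrophiles disable KEAP1, and NRF2 then pairs with a small MAF protein on antioxidant response elements near genes for glutathione synthesis, thioredoxin reduction, NADPH supply and detoxification. In skin the pathway is known for protecting keratinocytes from ultraviolet light, chemicals and oxygen radicals.

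The total gene count was 38382081 in the shcircSmad5 library and 39261010 in the empty vector library. Smad5, the host gene of the targeted circle, had 3413 counts in the shcircSmad5 library and 3109 in the empty vector library, but reads of the circle and of the linear transcript are pooled in such a count, so it is no measure of the knockdown. Of 12 markers of keratinocytes and hair follicle stem cells, 9 had at least 20 counts, and the list summed to 13290 CPM (counts scaled to the size of the library) in the shcircSmad5 library and 11933 CPM in the empty vector library, mostly from Krt14 and Krt5, with log2 ratios (shcircSmad5 over empty vector) of 0.45 and 0.09. The ratio was 0.01 for Tcf7l1 and below 0 for Itgb4 (-0.06), Nfatc1 (-0.18), Trp63 (-0.36), Itga6 (-0.53), Sox9 (-0.77) and Krt15 (-1.71). Of the stem cell markers, Sox9 had 5301 counts in the shcircSmad5 library and 8829 in the empty vector library, and Nfatc1 had 2077 in the shcircSmad5 library and 2300 in the empty vector library. Lhx2 (5 counts in the shcircSmad5 library and 4 in the empty vector library) and Cd34 (0 in each) were near or at 0, and Lgr5 was missing from the deposited genes. Krt15 had 79 counts in the shcircSmad5 library and 253 in the empty vector library. The marker lists of other skin cell types were low, with at most 6.69 CPM summed over any list in either library. The fibroblast markers Col1a1, Dcn and Lum were at 0 in both libraries, as were Lyz2 of immune cells and Cdh5 of endothelium. Dct and Tyr of melanocytes and Ptprc of immune cells were missing from the deposited genes. Other markers of those lists were detected at low counts, among them Pdgfra with 62 in the shcircSmad5 library and 161 in the empty vector library, Pecam1 with 27 in the shcircSmad5 library and 81 in the empty vector library, and Kdr with 4 in the shcircSmad5 library and 33 in the empty vector library. Cd68 had 225 counts in the shcircSmad5 library and 249 in the empty vector library. The part of other cell types in the results was not tested.

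Most of the 43 genes were well expressed and differed little between the lines, while a few enzymes of detoxification and peroxide removal were far lower in the shcircSmad5 library. Genes were called by size. A call needed 20 or more counts in at least 1 of the libraries and a 2-fold or larger difference after TMM scaling, which assumes that most genes are level. It also needed an exact 95% Clopper-Pearson interval, from the split of the counts, without a ratio of 1 in it. Such intervals cover counting error only. Of the 43 genes, 42 had at least 20 counts, and Gpx3 did not. By this rule Aldh3a1, Gpx2, Cbr3 and Cbr1 were lower in the shcircSmad5 library and Txnip was higher. That is 4 of 42 genes lower (9.52%) and 1 higher (2.38%), where 6.38% of all 11605 protein-coding genes measured were lower and 4.61% higher. Over genes of every biotype the background was 6.24% lower and 8.43% higher.

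At 1.5-fold, 9 of 42 genes were lower (21.4%) and 1 was higher (2.38%), against 13.6% of protein-coding genes lower and 9.31% higher. The added genes were G6pdx, Hmox1, Prdx1, Pgd and Cat. Ratios were also centred by chromosome, that is, shifted so that the median of each chromosome equalled that of all genes measured (-0.02). G6pdx, Prdx1, Pgd and Cat then fell short of 1.5-fold, at log2 ratios of -0.57, -0.50, -0.50 and -0.46. Sod1 instead went just past 1.5-fold with this centring, at -0.60. Cat also fell short with total counts (-0.55), upper quartile scaling (-0.55), reduced totals (-0.54) and FPKM (-0.55). The median log2 ratio, shcircSmad5 over empty vector, was -0.21 over the 42 genes, beside -0.05 over protein-coding genes and -0.02 over all genes measured. Of the 42 ratios, 30 were below 0 and 12 above, and 11 of them, none above 0.29 in size, took the other sign under 1 or more of 7 alternative scalings, units or prior counts. The counting interval lay below 0 for 27 genes, above 0 for 9 and spanned 0 for 6. These shares describe 2 libraries, and whether the list stands apart from other genes was not tested.

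**Figure D1:**
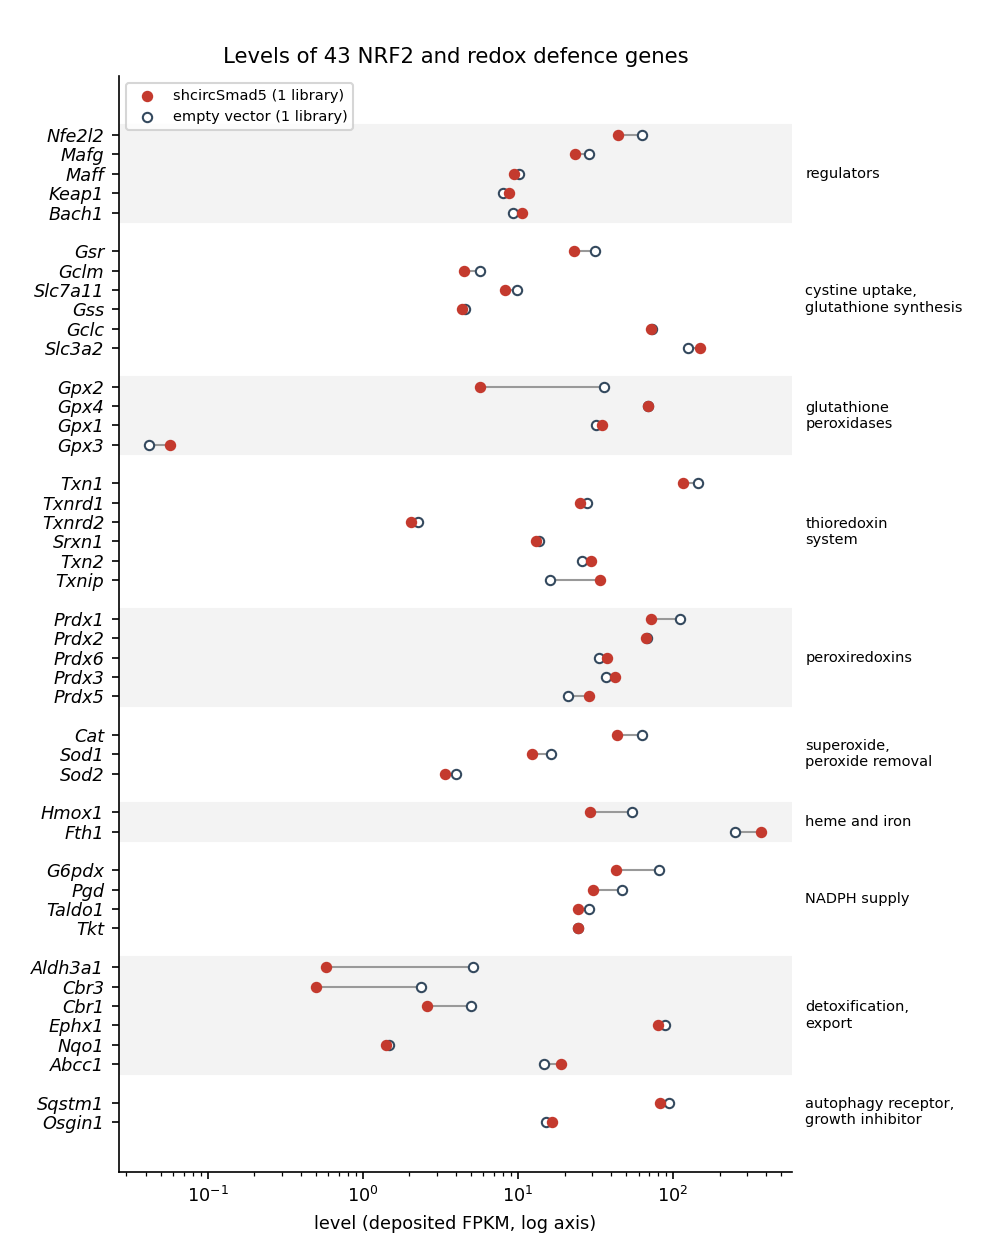
Deposited FPKM (log axis) of the 43 genes by role, with 1 filled point for the shcircSmad5 library and 1 open point for the empty vector library. Fth1 was the most abundant in both, Gpx3 was below 0.1 in both, and the widest gaps belong to Aldh3a1, Gpx2 and Cbr3.

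Levels were compared between genes by the deposited FPKM, fragments per kilobase scaled to the library's total, which carry no TMM scaling. The length is that of all annotated exons of a gene, so the order of genes depends on it. In the shcircSmad5 library the 5 most abundant genes were Fth1, Slc3a2, Txn1, Sqstm1 and Ephx1. In the empty vector library they were Fth1, Txn1, Slc3a2, Prdx1 and Sqstm1. The median level of the 42 genes was 24.8 FPKM in the shcircSmad5 library and 28.4 FPKM in the empty vector library, beside medians over protein-coding genes measured of 7.22 FPKM in the shcircSmad5 library and 7.27 FPKM in the empty vector library. Prdx1 ranked seventh in the shcircSmad5 library.

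The regulators themselves showed no difference of 1.5-fold. Nfe2l2 (ENSMUSG00000015839, chromosome 2, 75675513 to 75704641, minus strand, GRCm38) had 6422 counts in the shcircSmad5 library and 9359 in the empty vector library, at 44.1 FPKM in the shcircSmad5 library and 62.8 FPKM in the empty vector library. Its log2 ratio of -0.57 (95% counting interval -0.62 to -0.53) was the lowest of the 5 regulators. Keap1, the adaptor of the ubiquitin ligase that removes NRF2, had 1570 counts in the shcircSmad5 library and 1480 in the empty vector library, a log2 ratio of 0.06 whose interval of -0.05 to 0.16 spans 0. Bach1, a repressor that competes for the same elements and is released by heme, had 2540 counts in the shcircSmad5 library and 2246 in the empty vector library and a log2 ratio of 0.15 (0.07 to 0.23). Per length, Nfe2l2 stood at 5.06 times Keap1 in the shcircSmad5 library and 7.82 times in the empty vector library, and at 4.12 times Bach1 in the shcircSmad5 library and 6.78 times in the empty vector library. Of the small MAF partners, Mafg had a log2 ratio of -0.36 (-0.42 to -0.31) on 5060 counts in the shcircSmad5 library and 6371 in the empty vector library. Maff stood at 9.49 FPKM in the shcircSmad5 library and 10.2 FPKM in the empty vector library, and its log2 ratio was -0.16 (-0.29 to -0.03).

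Promoter windows, from 250 bases before to 50 after each start, were taken from RefSeq (GRCm38.p6), where 37 of the 43 genes had 1 or more. They were searched on both strands for TGACNNNGC, the core of the antioxidant response element, and for TGANTCAGC. The second pattern fixes the middle bases as TCA but leaves the fourth base free, so it is not a subset of the first. The first was found in 10 of 37 genes (27.0%), beside 16.9% of 9257 protein-coding genes measured that have a window, and the second in 3 of 37 (8.11%), beside 1.31%. The patterns overlap where the fourth base is C, as in Prdx1, whereas Osgin1 and the upstream match of Srxn1 have G there. The 10 genes with TGACNNNGC were Nfe2l2, Mafg, Maff, Gclm, Txnrd1, Prdx1, Srxn1, Sod1, G6pdx and Pgd, and their log2 ratios ran from -0.99 to -0.12 (median -0.44), with 0 past the 2-fold limit. The 26 measured genes whose windows lack it ran from -2.70 to 1.01 (median -0.11), with 3 lower and 1 higher past the limit. The TGACNNNGC matches of Pgd and Srxn1 begin 3 and 28 bases after the start, and a window of Pgd further upstream holds none. A match is a description of letters and not a site, and none of these data measure binding. A lack of a match covers the window only, as bases further away were not searched. The 6 genes without a window, which were not searched at all, were Aldh3a1, Hmox1, Gclc, Gsr, Prdx6 and Abcc1. Windows are shown for the gene with the lowest ratio among those that have one (Gpx2), for G6pdx, for the 3 genes with TGANTCAGC and for Txnip, the gene that was higher. Each is written 5′ to 3′ on the gene's strand, with the matches in capitals.
Gpx2 (chr12:76795505-76795804, minus strand): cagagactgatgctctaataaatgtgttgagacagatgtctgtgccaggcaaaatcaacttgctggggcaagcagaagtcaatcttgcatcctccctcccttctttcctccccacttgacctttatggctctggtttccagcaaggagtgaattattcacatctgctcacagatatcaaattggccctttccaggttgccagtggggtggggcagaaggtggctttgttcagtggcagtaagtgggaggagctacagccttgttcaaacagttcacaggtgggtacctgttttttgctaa
G6pdx (chrX:74428831-74429130, minus strand): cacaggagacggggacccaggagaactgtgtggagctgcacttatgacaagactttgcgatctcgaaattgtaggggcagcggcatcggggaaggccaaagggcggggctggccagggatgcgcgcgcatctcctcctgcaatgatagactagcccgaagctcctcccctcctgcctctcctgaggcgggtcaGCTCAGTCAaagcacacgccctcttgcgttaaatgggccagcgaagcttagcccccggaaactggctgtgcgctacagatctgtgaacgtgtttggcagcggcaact
Prdx1 (chr4:116685349-116685648, plus strand): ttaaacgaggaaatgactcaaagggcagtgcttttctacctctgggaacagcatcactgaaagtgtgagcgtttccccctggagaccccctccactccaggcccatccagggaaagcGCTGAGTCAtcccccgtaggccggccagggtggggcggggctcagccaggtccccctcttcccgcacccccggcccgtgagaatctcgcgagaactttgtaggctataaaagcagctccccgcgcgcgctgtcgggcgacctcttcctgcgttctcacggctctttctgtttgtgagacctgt
Srxn1 (chr2:152105274-152105573, plus strand): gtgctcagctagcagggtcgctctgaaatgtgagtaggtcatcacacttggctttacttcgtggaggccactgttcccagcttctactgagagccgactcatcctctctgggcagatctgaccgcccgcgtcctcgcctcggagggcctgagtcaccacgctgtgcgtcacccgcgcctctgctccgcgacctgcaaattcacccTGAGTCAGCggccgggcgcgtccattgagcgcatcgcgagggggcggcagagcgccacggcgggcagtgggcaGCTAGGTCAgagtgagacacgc
Osgin1 (chr8:119436897-119437196, plus strand): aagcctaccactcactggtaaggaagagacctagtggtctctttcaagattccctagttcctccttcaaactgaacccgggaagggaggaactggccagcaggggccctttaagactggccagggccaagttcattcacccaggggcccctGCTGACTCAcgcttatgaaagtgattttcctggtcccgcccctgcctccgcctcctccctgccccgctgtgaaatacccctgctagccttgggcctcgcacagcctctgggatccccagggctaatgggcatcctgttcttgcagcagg
Txnip (chr3:96557707-96558006, plus strand): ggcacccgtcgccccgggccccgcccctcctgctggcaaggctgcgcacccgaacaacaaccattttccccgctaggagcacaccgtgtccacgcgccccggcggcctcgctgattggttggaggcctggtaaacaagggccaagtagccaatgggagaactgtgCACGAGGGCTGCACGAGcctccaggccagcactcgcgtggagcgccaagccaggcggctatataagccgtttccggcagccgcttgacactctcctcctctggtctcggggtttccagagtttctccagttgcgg

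In these windows the match of Prdx1 begins 133 bases before the start, that of Osgin1 99 bases before and the upstream match of Srxn1 45 bases before. G6pdx holds TGACTGAGC on the opposite strand, 57 bases before its start. Gpx2 holds neither pattern in its window. The capitals in Txnip mark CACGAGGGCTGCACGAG, 85 bases before the start, where CACGNG occurs as a pair with 5 bases between its copies. This is the layout of the carbohydrate response element for which the gene is known, and it was found in 9 of 9257 protein-coding genes measured (0.0972%). The CACGNG pair and TGANTCAGC were picked after the values were seen. The 3 genes with TGANTCAGC had unlike log2 ratios, -0.69 for Prdx1, -0.12 for Srxn1 and 0.06 for Osgin1.

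The enzymes that modify or export foreign compounds held 3 of the 4 genes that were lower. Aldh3a1 (ENSMUSG00000019102, chromosome 11, 61207537 to 61218421, plus strand), an aldehyde dehydrogenase known from cornea and other barrier epithelia, had 43 counts in the shcircSmad5 library and 392 in the empty vector library. That is 0.577 FPKM in the shcircSmad5 library and 5.14 FPKM in the empty vector library, 9.31-fold lower (95% counting interval 6.78 to 13.1). The carbonyl reductases Cbr1 and Cbr3, which reduce ketones and quinones, are neighbours on chromosome 16 with 72.7 kb between them. Cbr3 (ENSMUSG00000022947, 93683215 to 93690990) had 24 counts in the shcircSmad5 library and 117 in the empty vector library, 4.98-fold lower (3.19 to 8.08). Cbr1 (ENSMUSG00000051483, 93605853 to 93610505) had 253 counts in the shcircSmad5 library and 497 in the empty vector library. It was 2.01-fold lower (1.72 to 2.34), just past the limit, and under 6 of the 7 alternatives it was just short of it, with log2 ratios as near to 0 as -0.92.

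With TMM scaling the other 4 of the 43 genes on chromosome 16 were within 1.5-fold, although Sod1 was at -0.60 with chromosomes centred. Their log2 ratios were 0.29 for Abcc1, 0.15 for Bach1, -0.48 for Sod1 and -0.21 for Txnrd2, and the median over 413 genes measured on the chromosome was 0.11. Nqo1, a quinone reductase often used as the readout of NRF2, was scarce in both lines, with 84 counts in the shcircSmad5 library and 90 in the empty vector library. At this depth its log2 ratio of -0.13 has an interval of -0.58 to 0.32. The microsomal epoxide hydrolase gene Ephx1 was abundant, at 79.7 FPKM in the shcircSmad5 library and 89.0 FPKM in the empty vector library, with a log2 ratio of -0.22. Abcc1, which encodes an exporter of glutathione conjugates, had 10999 counts in the shcircSmad5 library and 8784 in the empty vector library.

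**Figure D2:**
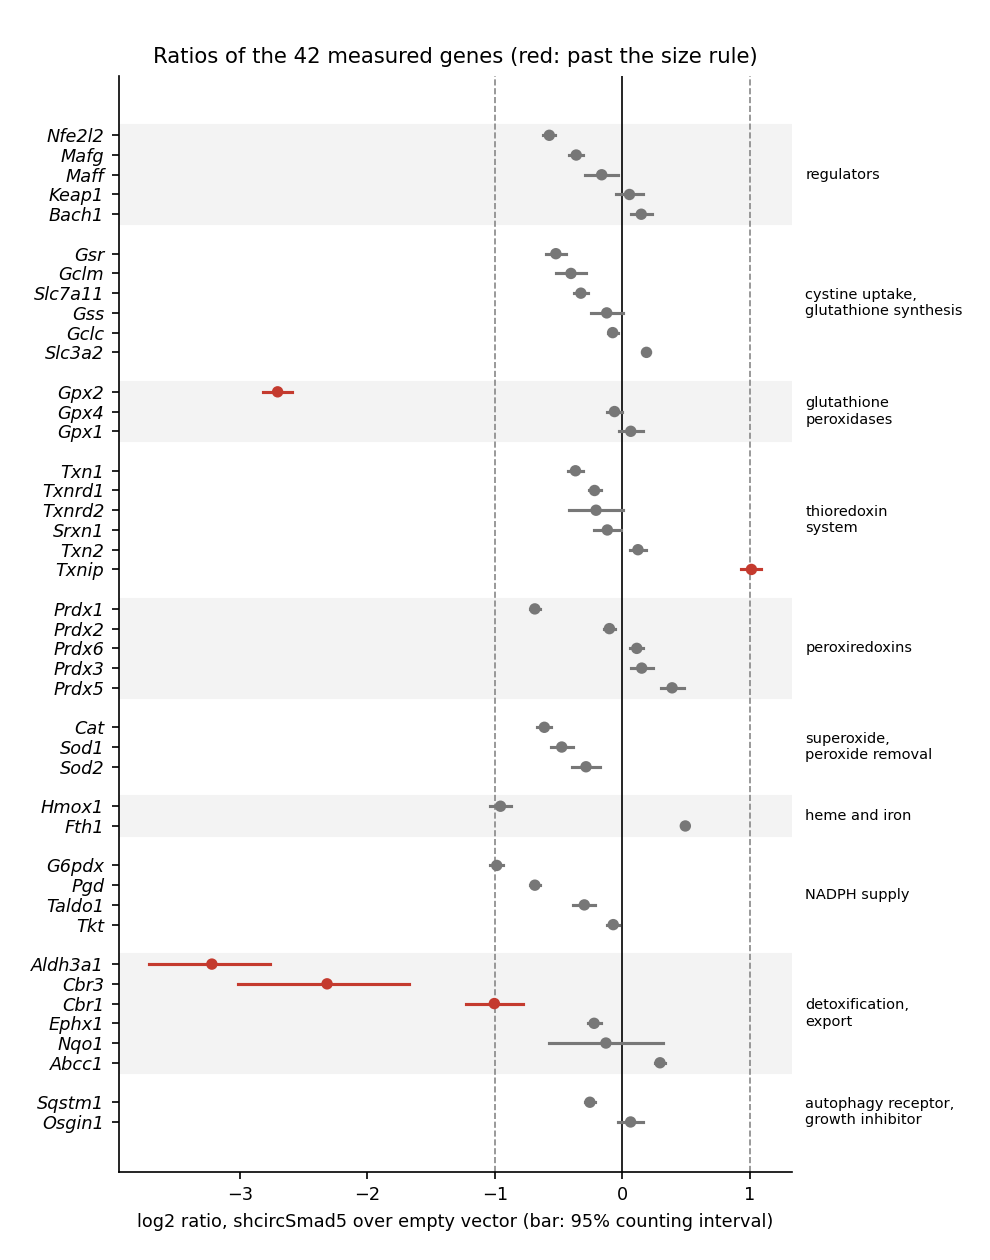
Log2 ratio (points) with its 95% counting interval (bars) for the 42 measured genes by role, with dashed lines at 2-fold. Aldh3a1, Gpx2, Cbr3, Cbr1 and Txnip, in red, passed the size rule, while G6pdx at -0.99 and Hmox1 at -0.96 lie just inside the line.

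Glutathione peroxidases reduce peroxides at the expense of glutathione, and in this family only Gpx2, of the 3 genes measured, was past the 2-fold limit. Gpx2 (ENSMUSG00000042808, chromosome 12, 76792333 to 76795554, minus strand), the peroxidase typical of epithelia, had 708 counts in the shcircSmad5 library and 4515 in the empty vector library. Its level was 5.73 FPKM in the shcircSmad5 library and 35.7 FPKM in the empty vector library, 6.51-fold lower (6.01 to 7.06). Gpx1, the widespread cytosolic enzyme, and Gpx4, which reduces lipid peroxides in membranes, had log2 ratios of 0.07 and -0.06, and the sign of each turned under 1 or more alternatives. Gpx2 made up 5.19% of the family's summed FPKM in the shcircSmad5 library and 26.0% in the empty vector library, where it stood slightly above Gpx1. The lengths behind these FPKM, 3222 bases for Gpx2 and 1441 for Gpx1, each span the whole gene. By counts without length, Gpx2 had 4515 and Gpx1 1817 in the empty vector library. The family's sum was 110 FPKM in the shcircSmad5 library and 137 FPKM in the empty vector library. Gpx3, the secreted plasma enzyme, had 4 counts in the shcircSmad5 library and 3 in the empty vector library and could not be compared. A pseudogene, Gpx2-ps1, shares a stretch of at least 95% identity with Gpx2 and had 1 count in the shcircSmad5 library and 4 in the empty vector library.

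**Figure D3:**
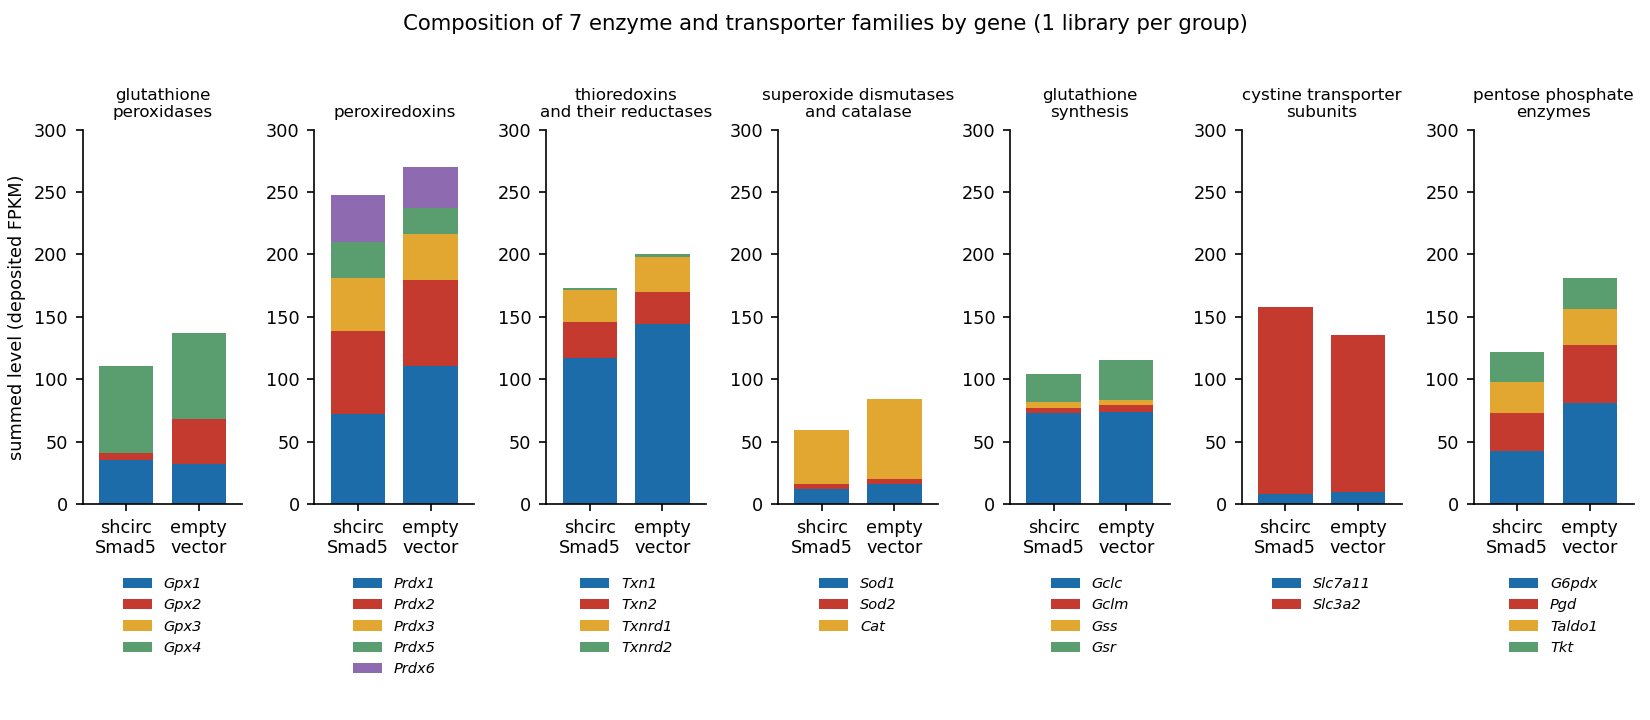
Deposited FPKM of the genes of 7 families, stacked, for the shcircSmad5 library (left bar) and the empty vector library (right bar). For shcircSmad5 against empty vector, the Gpx2 segment is 5.73 against 35.7 FPKM and the pentose phosphate bar 122 against 181 FPKM. The cystine transporter bar is the only one that is taller for shcircSmad5, at 158 against 135 FPKM.

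Genes that supply NADPH, the reductant on which the glutathione and thioredoxin systems draw, had ratios below 0, although that of Tkt was so near 0 that its sign turned under 1 alternative. The 2 enzymes of the oxidative pentose phosphate branch, which make NADPH, had the lowest. G6pdx (ENSMUSG00000031400, X chromosome, 74409483 to 74429194, minus strand), which encodes the enzyme of the first step, had 5039 counts in the shcircSmad5 library and 9772 in the empty vector library. That is 42.6 FPKM in the shcircSmad5 library and 80.8 FPKM in the empty vector library, with a log2 ratio of -0.99 (-1.03 to -0.94), short of the 2-fold limit. Pgd, for the next NADPH-producing dehydrogenase, had 7535 counts in the shcircSmad5 library and 11877 in the empty vector library and a log2 ratio of -0.69 (-0.73 to -0.64). The genes of the non-oxidative branch were nearer to level, Taldo1 at -0.30 (-0.38 to -0.21) and Tkt at -0.07 (-0.12 to -0.02). The summed level of these 4 genes was 0.673 times as high in the shcircSmad5 library.

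The median log2 ratio over the 373 genes measured on the X chromosome was -0.43. With ratios centred by chromosome, the log2 ratio of G6pdx was -0.57. Part of its exonic bases (13.6%) lie under exons of Ikbkg on the opposite strand, which had 2569 counts in each library. Whether the chromosome's level has a part in the ratio was not tested. Of the NADPH sources outside this list, Me1 (malic enzyme) and Idh1 (cytosolic isocitrate dehydrogenase) had log2 ratios of -0.76 and -0.68. Me1 had 2481 counts in the shcircSmad5 library and 4109 in the empty vector library, and Idh1 had 2336 in the shcircSmad5 library and 3659 in the empty vector library. These 2 genes were picked from the wider pathway list after their values were seen.

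In the thioredoxin system the inhibitor was higher, while the thioredoxins and reductases differed by less than 1.5-fold. Txnip (ENSMUSG00000038393, chromosome 3, 96557957 to 96561883, plus strand), whose product binds and blocks thioredoxin and curbs glucose uptake, had 4066 counts in the shcircSmad5 library and 1976 in the empty vector library. Its level was 33.9 FPKM in the shcircSmad5 library and 16.1 FPKM in the empty vector library, 2.02-fold higher (1.91 to 2.13). This is just past the limit, and with each chromosome centred the log2 ratio was 0.86, short of it. Exons of Gm15441 on the opposite strand cover 19.4% of the exonic bases of Txnip, and Gm15441 had 7 counts in the shcircSmad5 library and 0 in the empty vector library. Whether the overlap has a part in the ratio was not tested.

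Txn1, the cytosolic thioredoxin, had 4708 counts in the shcircSmad5 library and 5952 in the empty vector library and a log2 ratio of -0.37 (-0.42 to -0.31). Per length, Txn1 stood at 3.44 times Txnip in the shcircSmad5 library and 8.95 times in the empty vector library. The mitochondrial thioredoxin Txn2 had a log2 ratio of 0.12 (0.06 to 0.18), which was -0.09 with chromosomes centred. The reductases Txnrd1 (cytosolic) and Txnrd2 (mitochondrial) had log2 ratios of -0.22 (-0.27 to -0.17) and -0.21 (-0.42 to 0.01). Srxn1, which restores overoxidized peroxiredoxins, was nearly level at -0.12 (0.03 with chromosomes centred), with 1423 counts in the shcircSmad5 library and 1513 in the empty vector library.

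The peroxiredoxins, the thiol peroxidases that thioredoxin recharges, had ratios on both sides of 0, and 1 of the 5 differed by 1.5-fold. Prdx1 (cytosolic), whose promoter window holds TGACTCAGC, had 8394 counts in the shcircSmad5 library and 13234 in the empty vector library. Its level was 71.9 FPKM in the shcircSmad5 library and 111 FPKM in the empty vector library, a log2 ratio of -0.69 (-0.73 to -0.65). Prdx2, also cytosolic, had a ratio of -0.10 (-0.15 to -0.06). The mitochondrial Prdx3 was at 0.15 (0.07 to 0.24), and Prdx5, found in mitochondria, peroxisomes and cytosol, at 0.39 (0.30 to 0.48) with 2352 counts in the shcircSmad5 library and 1759 in the empty vector library. Prdx6, which uses glutathione in place of thioredoxin, was at 0.11 (0.06 to 0.16). Prdx1 supplied 29.1% of the family's summed FPKM in the shcircSmad5 library and 41.0% in the empty vector library. None of the 5 passed the 2-fold limit. With each chromosome centred at the median of all genes measured, the signs of Prdx2 and Prdx3 turned, but both were nearly level, at 0.01 and -0.00.

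The genes for superoxide and hydrogen peroxide removal had ratios below 0, of which that of Sod2 turned when chromosomes were centred. Cat (catalase) had 4347 counts in the shcircSmad5 library and 6508 in the empty vector library and a log2 ratio of -0.61 (-0.67 to -0.56). Sod1, the cytosolic copper and zinc dismutase, had 1877 counts in the shcircSmad5 library and 2557 in the empty vector library. Its ratio was -0.48 (-0.56 to -0.39), and -0.60 with chromosomes centred. Sod2, the mitochondrial manganese dismutase, had 1310 counts in the shcircSmad5 library and 1564 in the empty vector library and a ratio of -0.29 (-0.39 to -0.18). Sod2 lies on chromosome 17, whose median was -0.38 over 643 genes, and with chromosomes centred its ratio was 0.08.

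Of the genes for glutathione synthesis and recycling, none differed by 1.5-fold. Gclc and Gclm encode the catalytic and modifier subunits of the rate-limiting ligase. Gclc had 10509 counts in the shcircSmad5 library and 10854 in the empty vector library and a log2 ratio of -0.08 (-0.12 to -0.04), which turned to 0.00 under 1 alternative. Gclm had 1093 counts in the shcircSmad5 library and 1416 in the empty vector library and a ratio of -0.40 (-0.52 to -0.29). Per length, Gclc stood at 16.1 times Gclm in the shcircSmad5 library and 12.8 times in the empty vector library. Gsr, the reductase that regenerates glutathione, had 2422 counts in the shcircSmad5 library and 3406 in the empty vector library and a ratio of -0.52 (-0.60 to -0.45). Gss, for the final step of synthesis, was at -0.12 (-0.25 to 0.00), and at 0.02 with chromosomes centred.

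The subunits of the cystine-glutamate antiporter had ratios of opposite sign. Slc7a11, the transporting subunit, had 4424 counts in the shcircSmad5 library and 5431 in the empty vector library and a log2 ratio of -0.33 (-0.38 to -0.27). Slc3a2, the heavy chain that several other amino acid transporters share, had 20227 counts in the shcircSmad5 library and 17386 in the empty vector library and a ratio of 0.19 (0.16 to 0.22). With chromosomes centred, Slc7a11 was at -0.47 and Slc3a2 was nearly level, at 0.03. Slc3a2 stood at 18.0 times Slc7a11 per length in the shcircSmad5 library and 12.6 times in the empty vector library.

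Heme and iron genes also went in both directions. Hmox1 (ENSMUSG00000005413, chromosome 8, 75093621 to 75100589, plus strand), the inducible heme oxygenase, had 1959 counts in the shcircSmad5 library and 3722 in the empty vector library. That is 29.1 FPKM in the shcircSmad5 library and 54.1 FPKM in the empty vector library, a log2 ratio of -0.96 (-1.04 to -0.88), just short of 2-fold. Fth1, the ferritin heavy chain that oxidizes and stores iron, had 49483 counts in the shcircSmad5 library and 34439 in the empty vector library and a log2 ratio of 0.49 (0.47 to 0.51). Its partner Ftl1, the ferritin light chain, is outside the list and had 13921 counts in the shcircSmad5 library and 23832 in the empty vector library, a ratio of -0.81 (-0.84 to -0.78). Per length, Fth1 stood at 1.37 times Ftl1 in the shcircSmad5 library and 0.558 times in the empty vector library. The order of both chains thus differed between the lines by FPKM only, as Fth1 had more counts than Ftl1 in each library. Exons on the opposite strand cover 26.5% of Ftl1.

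The last pair was close to level. Sqstm1, the autophagy receptor p62 that binds KEAP1, had 10582 counts in the shcircSmad5 library and 12370 in the empty vector library and a log2 ratio of -0.26 (-0.29 to -0.22). Osgin1, an oxidative stress induced growth inhibitor, had 1699 counts in the shcircSmad5 library and 1592 in the empty vector library and a ratio of 0.06 (-0.04 to 0.16).

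**Figure D4:**
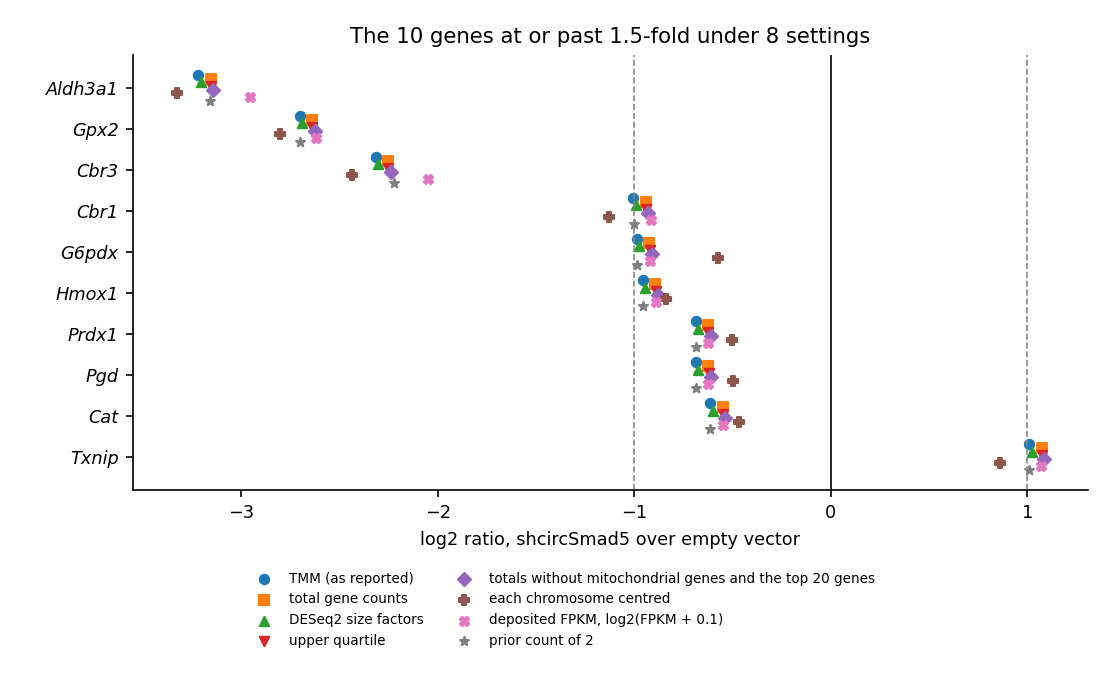
Log2 ratio of the 10 genes that differed by at least 1.5-fold, under TMM scaling and 7 alternatives (markers), with dashed lines at 2-fold. Aldh3a1, Gpx2 and Cbr3 lie beyond the line under each of them, Cbr1 and Txnip straddle it, and G6pdx moves furthest, to -0.57, when chromosomes are centred.

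A wider list of 87 pathway genes outside the 43 held larger differences in both directions. Of 83 found, 75 had at least 20 counts, with 10 lower (13.3%) and 6 higher (8%) by the size rule, beside 6.38% lower and 4.61% higher of protein-coding genes, and the median log2 ratio was -0.14. The 12 genes for NRF2 partners and its degradation held none of these, and their log2 ratios ran from -0.34 to 0.63. The highest were Bach2 (41 counts in the shcircSmad5 library and 26 in the empty vector library) and Nfe2l3 (44 in the shcircSmad5 library and 28 in the empty vector library). Their intervals of -0.12 to 1.39 and -0.09 to 1.36 span 0. Pir, an NRF2 target gene on the X chromosome, had 4 counts in the shcircSmad5 library and 376 in the empty vector library, 96.0-fold lower (37.2 to 354). The glutathione transferase gene Gsta4 had 3226 counts in the shcircSmad5 library and 10153 in the empty vector library, 3.21-fold lower. Other transferase genes that were lower were Gsta1 (6.04-fold), Gsta3 (2.24-fold), Gstm1 (13.4-fold), Mgst3 (2.33-fold) and Gsta2, with 5 counts in the shcircSmad5 library and 59 in the empty vector library. Ggh, a hydrolase of glutamyl chains, was 3.42-fold lower, Oplah, of the glutathione cycle, 3.74-fold and Lrp8, a receptor for selenoprotein P, 2.05-fold. The glutaredoxin gene Glrx had 521 counts in the shcircSmad5 library and 236 in the empty vector library, 2.16-fold higher. The exporter gene Abcc3 was 4.78-fold higher, and also higher were the transferase genes Gstk1 (11.1-fold), Gstm2 (7.74-fold) and Gstt2 (2.12-fold) and the alcohol dehydrogenase gene Adh7 (3.56-fold). Several folds in both directions rest on few counts. In the shcircSmad5 and empty vector libraries, Gstk1 had 79 and 7, Gstm2 79 and 10, Adh7 69 and 19 and Gstt2 26 and 12. Of the lower genes, Gstm1 had 6 and 79 and Oplah 6 and 22. With a minimum of 100 counts, 6 genes of this list were lower and 2 higher. Transferases of 1 class share much sequence, so their values are uncertain where reads were split among copies. The genes of the list with the most counts over both libraries were Gsto1, Ftl1 and Nfe2l1, with log2 ratios of -0.36, -0.81 and -0.06.

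Some of the 43 genes have copies that could take or lend reads. Transcripts of other loci matched Gpx4, Prdx1, Prdx2, Sod1 and Txn1 at 95% identity or more over 100 bases or more, all of them pseudogenes, and the handling of such reads is not given in the sources used here. Slc3a2, Slc7a11, Sod2 and Gclm had matches of at most 375 bases. The other loci, with pseudogenes among them in brackets, were 335 (8) for Slc3a2, 9 (5) for Slc7a11, 19 (0) for Sod2 and 1 (0) for Gclm. Copies of genes outside the 43 were not searched for. Exons of a gene on the opposite strand overlapped 9 of the 42 genes. Without these 9 the median log2 ratio was -0.22. In bulk RNA, fewer cells with a gene on and less of its RNA in each cell cannot be told apart.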

How the data were processed

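Per the labels' protocols, total RNA (3 µg per library) was extracted with Trizol, ribosomal RNA was removed and strand-specific libraries were made. The submitters' processing notes name HISAT2, HTSeq 0.13.5 and, as builds, GRCm38 and GRCh38, with no role for any. Whether counting used strand is not given in the sources used here.

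Raw read counts and FPKM values per gene were deposited by the authors, per the file headers. Each deposited FPKM equalled the count divided by the column total and a whole length within 0.001 bases, and for all 43 genes that length was the summed exon length of GENCODE M21, which supplied coordinates.

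The columns were matched to the 2 libraries by name, and 0 value columns were unmatched. Totals were 38382081 and 39261010 counts for shcircSmad5 and empty vector. Counts were scaled by TMM (edgeR 4.0.16, R 4.3.3), which also underlies the CPM. The FPKM were used as deposited, without TMM. Ratios are shcircSmad5 over empty vector, with exact 95% counting intervals (scipy 1.17.1), with a floor of 3 for counts of 0. The script was tested on simulated data. Near-identical transcripts were found with blastn 2.17.0. All 43 genes are described. Those past the size rule, those at about 1.5-fold or beyond with at least 100 counts and the regulators are given in full, and from the wider list those past the size rule and the 3 with most counts over both libraries. Members, lists and rules were chosen with earlier results of these data known. Alternatives were other scalings (library totals, DESeq2 1.42.0, upper quartile, reduced totals), centred chromosomes, FPKM with a pseudocount of 0.1, a prior count of 2, and other count minimums and fold limits. Centring shifted the ratios of each chromosome so that their median equalled that of all genes measured.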

Additional observations from a re-analysis of the deposited data

How the results depend on the processing

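Aldh3a1, Gpx2 and Cbr3 were lower under each scaling, unit, count minimum and fold limit tried. Cbr1 passed the limit with TMM and with centred chromosomes, but 3 genes in place of 4 were lower with the other 4 scalings and with FPKM, and Cbr1 was also just short of it with a prior count of 2. With centred chromosomes 0 genes were higher (Txnip at 0.86), as at 3-fold with TMM scaling (0). At 1.5-fold with TMM scaling, 9 genes were lower. The median log2 ratio was -0.15 with total counts, upper quartile scaling and FPKM, -0.14 with totals without mitochondrial and top genes, and its mean was -0.37. Scaling moved the median of all genes by at most 0.08. The sign of 11 genes, none above 0.29 in size, differed in 1 or more of 7 alternatives. Of the wider list 6 were lower and 2 higher at 100 counts, and 17 lower (22.7%) and 9 higher (12%) at 1.5-fold, beside 13.6% and 9.31% of protein-coding genes. By counts without length, Gpx2 held 9.77% (exact 95% interval 9.10 to 10.5) of the family in the shcircSmad5 library and 40.9% (40.0 to 41.8) in the empty vector library. With 1 library per group, leaving out a replicate was not possible. No paired analysis was possible because each group has 1 library. At this depth Gpx3 could not be compared.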
